A study of Homo sapiens
Mus musculus and Mus musculus and Homo sapiens with 16 samples.

Results

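The genes described here encode 9 costimulatory ligands, the surface proteins through which a B cell engages receptors on T cells and other lymphocytes: CD86, CD80, CD40, ICOSLG, CD274, PDCD1LG2, CD70, CD58 and CD48. They were taken by symbol from the human count table, as 9 of 58051 genes, and 6 of them passed the filter on low counts. CD86 was chosen by its level in these libraries, higher in coculture than in monoculture, so its values are given as a description without a p-value. The other 8 were listed by their role, with earlier results of these data known. Their p-values come from a model over all genes tested, and the list as a whole was not tested.

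The cells were REC-1, a human mantle cell lymphoma (MCL) line, and MS-5, a line of mouse stromal cells derived from bone marrow. Each of 4 groups held 4 libraries, made from polyA RNA after 24 h of incubation. Sep was REC-1 grown alone. Susp was REC-1 that floated free over an MS-5 layer, Adh was REC-1 attached to that layer and sequenced together with it, and the last group was MS-5 grown alone. Adh reads had been sorted by species by the study's authors, so Adh gave a human and a mouse profile from the same library. By the growth protocol in the labels, monocultures and cocultures alike were kept in αMEM-glutamax medium with serum, whereas the study's methods name RPMI-glutamax for routine culture of the lymphoma lines. The labels name no engineered change, REC-1 is a single cell line, and each culture was a dish that held no T cells. The study describes the replicates as independent experiments, and p-values measure the spread between them within a single cell line. The labels do not say whether a shared replicate number marks a shared experiment. Because RNA was taken from whole fractions, a change in the share of cells that express a gene cannot be told apart from a change in each cell.

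Human counts came to 9325412 to 12597891 per Sep library, 15000927 to 21467832 per Susp library and 7758979 to 13241751 per Adh library. The lymphoma line carried its defining transcripts, with CCND1 (cyclin D1) at 1135 to 2127 CPM (counts scaled to a common library size) and MS4A1 (CD20) at 991 to 1374 CPM, whereas CD5, a marker of most MCL, was at 0 to 22 counts. The 10 stromal markers searched in the human columns summed to 5.04–8.68 CPM in Sep, 5.66–6.37 CPM in Susp and 5.78–8.99 CPM in Adh, with COL1A1, COL1A2, DCN and LUM at or near 0. The highest were FN1, at 2.40 to 5.91 CPM over the REC-1 libraries, and COL6A1, at 1.10 to 3.14 CPM. The 6 T cell markers summed to 4.43–5.58 CPM in Sep, 6.04–7.93 CPM in Susp and 6.30–10.2 CPM in Adh. The 8 myeloid and dendritic markers summed to 47.3–67.5, 54.1–69.0 and 55.2–77.6 CPM in the same order, nearly all of it CD1C, which B cells also express. FCGR3A and CLEC9A were at 0 throughout. The part of these other lists in the results below was not tested. Susp replicate 2 stood apart from the other Susp libraries for several ligand genes, and values without it are given beside those genes.

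T cells need a second signal beside the antigen receptor to respond fully, and costimulatory ligands deliver it. CD80 and CD86 bind CD28, which activates T cells, and CTLA4, which restrains them. In B cells both ligands rise with activation, for instance through CD40 or the B cell receptor. CD70 binds CD27, ICOSLG binds ICOS, CD58 binds CD2, and CD48 binds CD244 and, weakly, CD2. CD274 (PD-L1) and PDCD1LG2 (PD-L2) bind the inhibitory receptor PD-1. CD40 differs from the others in that it is itself a receptor, which helper T cells engage through CD40LG.

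The stretches of 250 bases upstream of the start of the MANE Select transcript are shown for CD86, the gene with the largest fold difference from Sep among the 6 tested, in Susp and in Adh alike, and for CD80, which shares its receptors with CD86. They were read from the human genome build hg38 with GENCODE release 44 starts and run 5′ to 3′ on the strand of the gene. Capitals mark matches to short motifs. CD86 lay at chr3:122055362-122121139 on the plus strand and its window at chr3:122055112-122055361. CD80 lay at chr3:119524293-119559614 on the minus strand and its window at chr3:119559615-119559864. CD70 lay at chr19:6583183-6604103 on the minus strand.
CD86: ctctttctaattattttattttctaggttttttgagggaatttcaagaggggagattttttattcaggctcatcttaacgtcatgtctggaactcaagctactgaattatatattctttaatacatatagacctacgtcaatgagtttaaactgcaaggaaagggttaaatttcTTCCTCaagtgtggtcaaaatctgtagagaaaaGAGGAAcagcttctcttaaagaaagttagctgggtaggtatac
CD80: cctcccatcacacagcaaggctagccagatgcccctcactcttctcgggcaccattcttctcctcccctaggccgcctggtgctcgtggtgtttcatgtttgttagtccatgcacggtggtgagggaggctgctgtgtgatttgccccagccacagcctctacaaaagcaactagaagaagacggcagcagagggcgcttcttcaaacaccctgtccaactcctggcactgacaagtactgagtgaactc

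The 2 windows differed in their base composition and in the motifs they held. GC made up 34% of the CD86 window and 56% of the CD80 window. The motifs were searched on both strands, with N for any base. They were that of NF-kB (GGGA, any base, TTTCC), STAT (TTCNNNGAA), the interferon response element or ISRE (GAAA, any 2 bases, GAAA), PU.1 (GAGGAA) and AP-1 (TGANTCA). The CD86 window held 2 matches to the PU.1 motif, at 76 to 71 bases before the start on the minus strand and 43 to 38 bases before it on the plus strand. PU.1 matches were common, in 23.2% of 19061 promoter windows of the same length. CD80 had no match to the 5 motifs. The NF-kB, STAT, ISRE and AP-1 motifs were in 0.477%, 5.58%, 2.83% and 4.74% of all windows. These are matches of letters, and binding was not measured.

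Per length of exon, REC-1 carried the most CD70, at 46.1 ± 6.40 RPKM (CPM divided by exon length in kilobases, mean ± SD, n = 4 in each group) in Sep, 85.5 ± 18.8 RPKM in Susp and 67.3 ± 12.6 RPKM in Adh. CD48 and CD40 came next and were close to each other, at 21.3 ± 2.30 and 20.9 ± 0.820 RPKM in Sep. Their ranges overlapped in Sep and in Adh, whereas in Susp the lowest CD48 library (25.9 RPKM) was just above the highest CD40 library (25.8 RPKM). CD86 stood below these 3 in every group, at 4.18 ± 0.616 RPKM in Sep, 13.9 ± 0.575 RPKM in Susp and 13.3 ± 1.88 RPKM in Adh. CD58 (2.07, 2.61 and 3.60 RPKM in Sep, Susp and Adh) and CD80 (0.855, 0.671 and 1.11 RPKM) followed. The ranges of CD86, CD58 and CD80 did not overlap within any group. ICOSLG and CD274 had mean levels of at most 0.0737 RPKM, and PDCD1LG2 had no counts in any of the 12 libraries. This order depends on the exon lengths, which joined all annotated exons of a gene (1530 bases for CD70 and 5619 for CD40). In mean CPM, CD40 was above CD70 in Sep (117 against 70.5) and in Adh (138 against 103). In Susp, CD70 was above CD40 by CPM also (131 against 121).

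**Figure D1:**
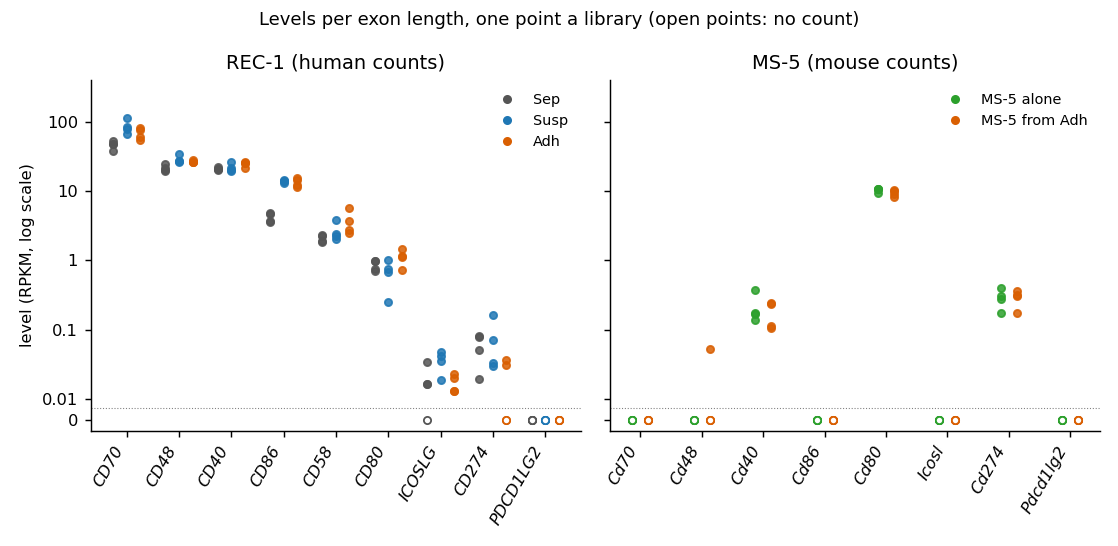
Level of each ligand gene per exon length (RPKM, log axis) in REC-1 (left: Sep, Susp and Adh) and of its mouse counterpart in MS-5 (right: alone or from Adh), with a point for each library and open points for libraries without a count. By this measure per exon length, CD70 led in REC-1 and Cd80 in MS-5, where Cd86 and Cd70 were at 0 in all 8 libraries.

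CD86 was higher in both coculture fractions than in monoculture. The Sep libraries held 16.4, 12.7, 16.0 and 12.4 CPM of CD86 (replicates 1 to 4), from 152 to 208 counts. Susp held 48.3, 44.8, 49.3 and 48.4 CPM, and Adh held 39.0, 53.2, 48.6 and 41.8 CPM. Every coculture library was above every Sep library, and the Susp and Adh ranges overlapped. The fitted difference from Sep was 3.32-fold in Susp (log2 1.73, SE 0.13, 95% interval 2.76- to 4.0-fold) and 3.18-fold in Adh (log2 1.67, SE 0.13, 2.64- to 3.83-fold), and both comparisons share the Sep libraries. Between Adh and Susp, CD86 differed by a log2 value of -0.06 (SE 0.12, 95% interval -0.32 to 0.19), an interval that holds differences of up to 1.14-fold upwards and 0.804-fold downwards.

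CD80, the other ligand of CD28 and CTLA4, was low in all groups. It held 2.28, 3.18, 3.14 and 2.39 CPM in Sep, 2.19, 0.799, 2.42 and 3.22 CPM in Susp and 2.33, 3.66, 3.60 and 4.62 CPM in Adh, from 13 to 50 counts. The ranges overlapped throughout. The log2 fold change was -0.34 in Susp (95% interval of the fold 0.477 to 1.30, adjusted p = 0.608) and 0.36 in Adh against Sep (0.771 to 2.12, adjusted p = 0.609, edgeR quasi-likelihood test with Benjamini-Hochberg adjustment over 12861 genes, as for all adjusted p-values of human genes here). In GENCODE 44, 24.8% of the exon length of CD80, at its 3′ end, is shared with TIMMDC1 on the opposite strand. The sources used here do not say whether counting used strand or how shared bases were counted. Whether the overlap raised or lowered these few counts, and with them the CD86 share below, was not tested. Without Susp replicate 2, the lowest library, the log2 value in Susp was -0.08 (adjusted p = 0.952). CD86 made up 82.9% of the summed RPKM of CD80 and CD86 in Sep (78.9–87.02% over libraries), 95.5% in Susp (93.3–98.1%) and 92.3% in Adh (89.4–94.0%).

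**Figure D2:**
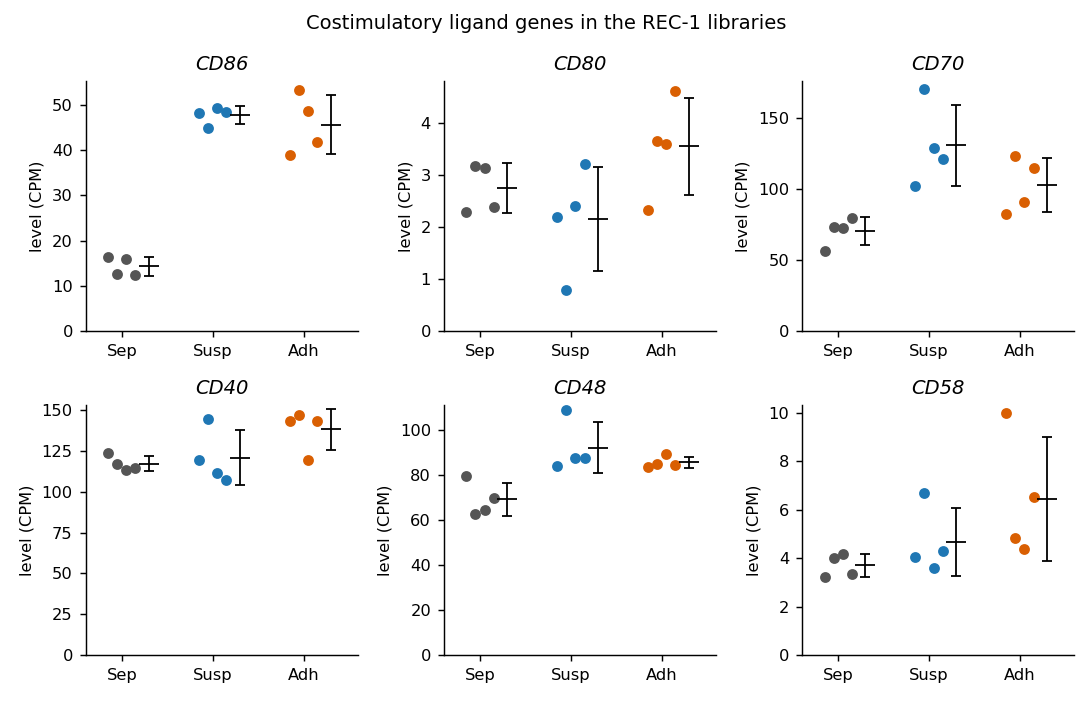
Level (CPM, from 0) of the 6 ligand genes that passed the filter on low counts, with a point for each library in replicate order and the mean ± SD (n = 4) beside it. The 4 Sep points of CD86 lie at 12.4 to 16.4 CPM and the 8 coculture points at 39.0 to 53.2 CPM, and the CD80, CD40 and CD58 points of Susp overlap those of Sep.

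CD70, a TNF family ligand of activated lymphocytes, rose in Susp. Its levels were 56.7, 73.2, 72.5 and 79.7 CPM in Sep, 102, 171, 129 and 121 CPM in Susp and 82.9, 123, 91.0 and 115 CPM in Adh. All Susp and all Adh libraries were above all Sep libraries, and Susp and Adh overlapped. In Susp the rise was 1.86-fold (log2 0.89, SE 0.16, 95% interval 1.47 to 2.34, adjusted p = 0.00812), which passed the threshold of an adjusted p of 0.05 with a 1.5-fold change. In Adh the value was 1.46-fold (log2 0.55, SE 0.16, 1.16 to 1.84, adjusted p = 0.0673), which did not pass. Without Susp replicate 2, a library of the same model, the adjusted p in Adh was 0.00946 at a log2 of 0.55, still short of a 1.5-fold change. Adh against Susp gave a log2 value of -0.35 (95% interval -0.68 to -0.01, adjusted p = 0.259). Susp replicate 2 was the highest Susp library for CD70, CD40, CD48 and CD58 and the lowest for CD80, and without it the Susp value was a log2 of 0.73 with an adjusted p of 0.00714.

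Base composition moved with the comparison in which CD70 rose. Across 12773 genes the log2 fold change of Susp over Sep correlated with exon GC content at r = 0.364 (genes are not independent replicates), and CD70 exons were 55.0% GC, above 73.9% of the genes tested. After the trend with GC was removed, the log2 value of CD70 was 0.79 in Susp (adjusted p = 0.00106) and 0.56 in Adh (adjusted p = 0.00987, below a 1.5-fold change). For Adh over Sep the correlation with GC was -0.103. For Adh over Susp, where the log2 value of CD70 was -0.35, it was -0.428. CD86 exons were 44.7% GC, near the median of 47.4%.

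CD40, the receptor through which helper T cells drive B cells to express CD80 and CD86, was abundant, and its differences between groups did not pass the test. It held 124, 117, 114 and 115 CPM in Sep, 120, 145, 111 and 107 CPM in Susp and 143, 147, 119 and 143 CPM in Adh. The groups overlapped in each comparison. The log2 value was 0.04 in Susp (95% interval of the fold 0.886 to 1.20, adjusted p = 0.850) and 0.24 in Adh against Sep (1.02 to 1.37, adjusted p = 0.201). The sign for Susp turned negative under scaling by library totals and without Susp replicate 2. Without that library the adjusted p in Adh was 0.0451, at a log2 value of 0.24 that fell short of a 1.5-fold change.

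CD48 and CD58, related adhesion ligands of the CD2 family, were higher in some coculture libraries but did not pass the threshold. CD48 held 79.4, 62.8, 64.6 and 70.0 CPM in Sep, 84.3, 109, 87.6 and 87.8 CPM in Susp and 83.7, 85.1, 89.3 and 84.6 CPM in Adh. All 8 coculture libraries were above the Sep libraries, with log2 values of 0.41 in Susp (SE 0.10, adjusted p = 0.0659) and 0.31 in Adh (adjusted p = 0.104). Without Susp replicate 2 these were 0.31 in Susp (adjusted p = 0.0891) and 0.31 in Adh (adjusted p = 0.0182), both under 1.5-fold. Of the exon length of CD48, 30.0% is shared with a long noncoding RNA on the opposite strand that did not pass the filter on low counts. CD58 held 3.23, 4.02, 4.18 and 3.35 CPM in Sep, 4.05, 6.70, 3.58 and 4.30 CPM in Susp and 10.0, 4.81, 4.37 and 6.54 CPM in Adh. Only the Adh libraries were all above Sep, at a log2 value of 0.82 (SE 0.28, 95% interval of the fold 1.18 to 2.65, adjusted p = 0.105), and replicate 1 was far above the other Adh libraries. Without it the log2 value was 0.51 (adjusted p = 0.330). In Susp the log2 value of CD58 was 0.34 (adjusted p = 0.529), and 0.10 (adjusted p = 0.936) without Susp replicate 2. Without that library the adjusted p of CD58 in Adh was 0.0409, at a log2 value of 0.83.

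**Figure D3:**
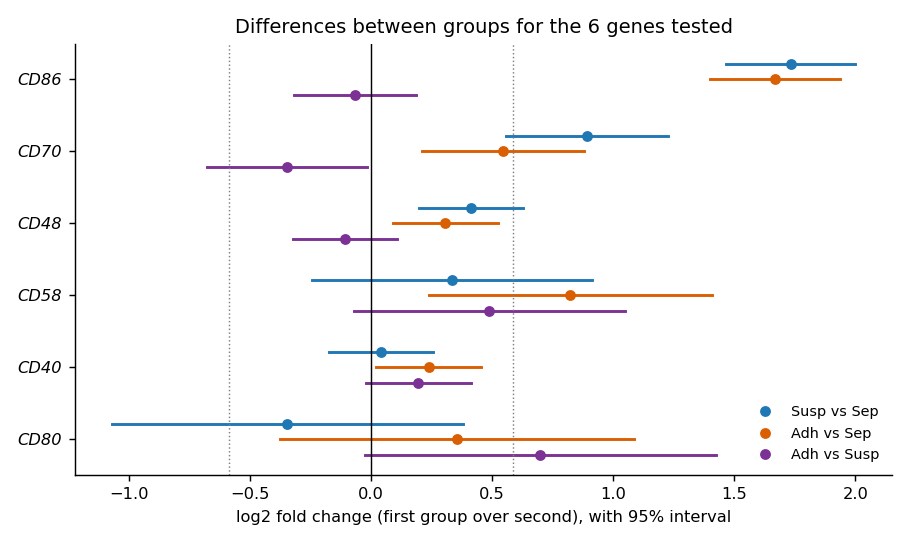
Log2 fold change (points) with its 95% interval (lines) for the 6 genes tested in the 3 comparisons among Sep, Susp and Adh; dotted lines mark a 1.5-fold change in either direction. The CD86 values against Sep (1.73 and 1.67) lie beyond the dotted line and the Adh against Susp value (-0.06) lies by 0.

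The remaining 3 genes were too low to test. ICOSLG had 4, 8, 0 and 4 counts in Sep, 14, 6, 14 and 12 in Susp and 6, 4, 2 and 2 in Adh. CD274 had 1, 4, 2 and 4 counts in Sep, 10, 2, 6 and 2 in Susp and 2, 0, 0 and 1 in Adh. PDCD1LG2, the neighbour of CD274 on chromosome 9, had 0 counts in each library, which allows a level of up to 0.145 to 0.385 CPM (3 counts of the library's total, counting error only). Most small counts in these files were even, as if many fragments had been counted as 2 reads, so that these limits may be too tight.

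Among all 12861 genes tested, 0.731% passed the threshold in Susp against Sep, 2.4% in Adh against Sep and 0.778% in Adh against Susp. Of the 6 ligand genes tested, CD86 and CD70 passed in the first comparison, CD86 in the second and 0 in the third (0 also by DESeq2), where 18% of all genes had an unadjusted p under 0.05 and where CD70 did so among the ligands. In the first and second comparisons 16.7% and 20.2% of all genes had an unadjusted p under 0.05. Groups did not overlap for CD86, CD70 and CD48 in Susp against Sep, where 11.3% of all genes had groups apart, and for these 3 and CD58 in Adh against Sep, where 15.7% did. The median log2 fold change of the 6 was 0.37, 0.45 and 0.07 in the 3 comparisons, against medians over all genes of -0.0059, -0.0034 and -0.0051. CD86 entered the list for its difference from Sep, so its part in these counts, in the medians and in the sums below is fixed by that choice. Summed over the 9 genes, the level was 274 to 283 CPM in Sep, 362 to 477 CPM in Susp and 356 to 418 CPM in Adh. CD86 accounted for 5.16%, 12.1% and 11.9% of these sums.

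Over the 12 REC-1 libraries, CD86 varied most like CD48 (r = 0.819) and CD70 (r = 0.764) among the ligand genes, and CD48 and CD70 resembled each other (r = 0.759). CD40 went with CD58 (r = 0.745), and CD80 with no other listed gene (r from -0.473 to -0.033). These values describe libraries that fall into 3 groups, and no test was made of them. Of 8493 genes with a mean of at least 10 CPM, those most like CD86 were SLC39A8 (a zinc transporter, r = 0.973), IL7R (the interleukin-7 receptor, 0.964), SLC1A4 (a neutral amino acid transporter, 0.956), CABLES1 (0.945) and RIMS3 (0.933). SLC39A8 went from a mean of 37.1 CPM in Sep to 59.6 in Susp and 62.4 in Adh, and IL7R from 8.23 to 20.1 and 17.3 CPM. The genes most opposed to CD86 were COCH (r = -0.941), LAPTM5 (-0.937), a lysosomal membrane protein of lymphocytes, and CPT1A (-0.936), which carries fatty acids into mitochondria. LAPTM5 went from 74.2 CPM in Sep to 37.2 in Susp and 40.5 in Adh. With ranks in place of values, 1 of the 5 genes most like CD86 stayed among the 5. CD40 was most like EPCAM (r = 0.924), YRDC, RBM8A, ANXA6 and CPVL, CD58 most like CDC123 (0.905), DPM1, NMI, SYF2 and F11R, and CD48 most like DUSP5 (0.969), CLIC1, RNF181, NSDHL and NENF.

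The wider B7 and TNF ligand list held 19 genes, of which 9 were tested and 1, TNFSF9, rose in Susp and in Adh. Over all genes, 0.731% passed in Susp against Sep and 2.4% in Adh against Sep. TNFSF9 is the 4-1BB ligand, which costimulates T cells through TNFRSF9. It held 7.79, 7.95, 9.0 and 10.8 CPM in Sep, 12.1, 21.3, 17.4 and 14.6 CPM in Susp and 13.5, 15.2, 12.1 and 17.7 CPM in Adh, with every coculture library above every Sep library. The log2 values were 0.88 in Susp (SE 0.18, adjusted p = 0.0231) and 0.72 in Adh (SE 0.19, adjusted p = 0.0438). The direction held under all 25 alternative settings, but the call was lost in Susp under 5 of them, among them leaving out Sep replicate 1, 2 or 3 or Susp replicate 3 (adjusted p from 0.0665 to 0.0991). In Adh it was lost under 12, among them leaving out any Sep or Adh library, Susp replicate 3 or Susp replicate 4 (adjusted p from 0.0505 to 0.141). CD47, the most abundant of the list, was at 332, 328 and 334 CPM in Sep, Susp and Adh (adjusted p of at least 0.876). In Adh against Susp 0 of the 9 passed by edgeR, where 0.778% of all genes did. DESeq2 called LGALS9 there, at 5.97 CPM in Adh and 12.4 CPM in Susp (edgeR log2 -1.04, adjusted p = 0.0720). An unadjusted p under 0.05 held for 2, 1 and 3 in Susp against Sep, Adh against Sep and Adh against Susp. Over all genes these shares were 16.7%, 20.2% and 18%.

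TNFSF9 is also the nearest tested neighbour of CD70. It lies at chr19:6531026-6535924 on the plus strand, 47258 bases from the 3′ end of CD70. Of 16 genes tested with any part within 500 kb of CD70, TNFSF9 was the 1 that passed in either comparison with Sep. SLC25A23 had adjusted p-values of 0.0359 in Susp and 0.0135 in Adh, at log2 values of 0.43 and 0.46 that fell short of a 1.5-fold change. The 16 had log2 values from -0.26 to 0.96 in Susp and from -0.32 to 0.72 in Adh. Their median was 0.33 in Susp and 0.099 in Adh, against -0.0059 and -0.0034 over all genes. The highest in Susp, SH2D3A at 0.96, had an adjusted p of 0.0706. DESeq2 called 2 of the 16 in Susp and 1 in Adh. Around CD86, 0 of 13 genes tested passed by edgeR and DESeq2 called 1, in Adh. Over all genes, 0.731% passed by edgeR in Susp and 2.4% in Adh against Sep. The counts over all genes by DESeq2, which were larger, are given in the last paragraph. An unadjusted p under 0.05 was found for 4 of these 13 in Susp and 6 in Adh, and for 6 and 7 of the 16 around CD70, where 16.7% and 20.2% of all genes had one. Around CD86 the log2 values ran from -0.43 to 0.76 in Susp and from -0.82 to 0.32 in Adh, all below that of CD86. Because CD86 was chosen for its rise over Sep, its place above its neighbours carries no weight. This window was chosen after the values of CD70 and CD86 were known.

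**Figure D4:**
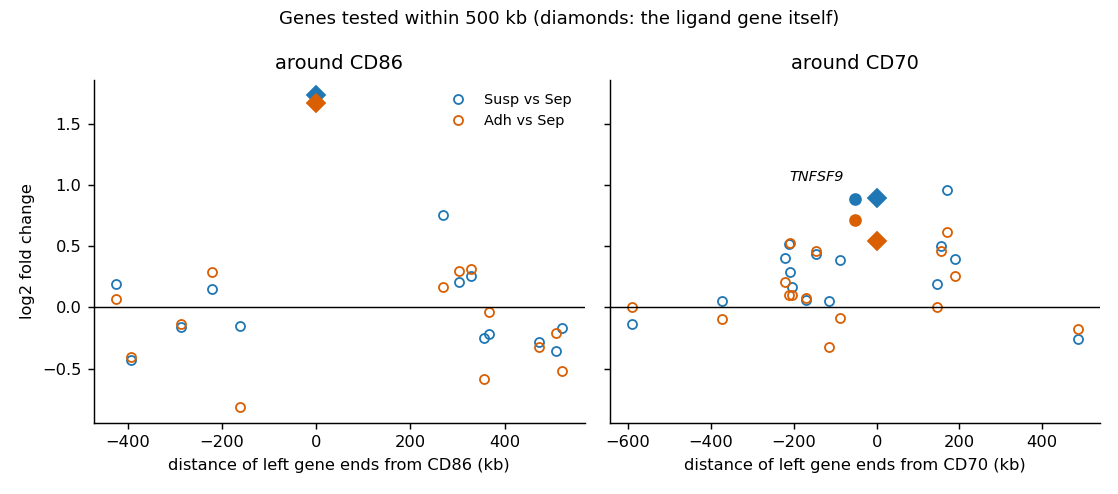
Log2 fold change against Sep of the genes tested around CD86 (left) and CD70 (right) by the distance between left gene ends in kb; diamonds are CD86 and CD70 themselves, filled circles genes past the threshold and open circles the rest. TNFSF9 is the filled gene beside CD70 at 0.88 in Susp and 0.72 in Adh. The diamonds of CD86, which was chosen for its rise over Sep, lie at 1.73 and 1.67, above the circles around it.

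Among genes that act with these ligands, none on the next 4 lists passed the edgeR test in any of the 3 comparisons, nor did any pass by DESeq2. Of the 8 receptors of the ligands, PDCD1 and CD28 passed the filter on low counts and 0 had an unadjusted p under 0.05, with PDCD1 (PD-1) at 6.91, 7.64 and 5.15 CPM in Sep, Susp and Adh and CD28 at 1.12, 1.0 and 1.31 CPM. Of 6 regulators of surface turnover, 1, 1 and 2 had an unadjusted p under 0.05 in Susp against Sep, Adh against Sep and Adh against Susp, where 16.7%, 20.2% and 18% of all genes did. Among them MARCH1, a ubiquitin ligase that removes CD86 from the surface, was at 16.9, 16.8 and 13.9 CPM (adjusted p of at least 0.385) and CD83, which opposes MARCH1, at 266, 232 and 266 CPM (adjusted p of at least 0.201). CMTM6, which stabilises PD-L1, was at 116, 108 and 118 CPM.

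Of 17 genes of CD40 and NF-kB signalling, all tested, 6, 5 and 4 had an unadjusted p under 0.05 in the same 3 comparisons, against 16.7%, 20.2% and 18% of all genes. TNFAIP3, an NF-kB target that shuts the pathway off, was lower in Susp than in Sep with an adjusted p of 0.0168, at 80.2 against 119 CPM, a log2 value of -0.57 that fell short of a 1.5-fold change. NFKB1 was at 174, 154 and 144 CPM in Sep, Susp and Adh, and its log2 value of -0.27 in Adh had an adjusted p of 0.0563. NFKB2 was at 80.0, 105 and 87.8 CPM (adjusted p of at least 0.190) and REL at 146 ± 6.58, 96.3 ± 53.8 and 126 ± 11.2 CPM (adjusted p of at least 0.393). Susp replicate 2 held 17.0 CPM of REL and the other Susp libraries 109 to 131 CPM, and without it the log2 value in Susp went from -0.60 to -0.26 (adjusted p = 0.174). Of 15 JAK, STAT and IRF regulators, 14 were tested, and 1, 2 and 2 had an unadjusted p under 0.05, against the same shares of all genes. STAT2 had an adjusted p of 0.0439 in Adh against Sep at a log2 value of -0.37, below a 1.5-fold change. IRF4 (325, 266 and 311 CPM) and SPI1, which encodes PU.1 (68.5, 88.5 and 70.8 CPM), had adjusted p-values of at least 0.204 and 0.304.

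Of 14 other surface proteins of activated B cells, 13 were tested and CD72, CD69 and CD44 passed in a comparison. CD72 and CD69 passed in Susp against Sep and CD44 in Adh against Susp, where 0.731% and 0.778% of all genes passed. In Adh against Sep 0 passed, against 2.4% of all genes. An unadjusted p under 0.05 held for 5, 4 and 5 in Susp against Sep, Adh against Sep and Adh against Susp. Over all genes these shares were 16.7%, 20.2% and 18%. CD72, an inhibitory coreceptor, rose in Susp from 22.9 ± 1.46 to 37.8 ± 5.96 CPM (log2 0.72, adjusted p = 0.00604). CD69, an early activation marker, fell in Susp from 32.9 ± 4.68 to 20.6 ± 1.27 CPM (log2 -0.68, adjusted p = 0.0137), a call that 5 of 25 alternative settings did not keep. Without Sep replicate 1, Susp replicate 3 or Susp replicate 4 its adjusted p was 0.0557, 0.0592 and 0.0556. CD44, the hyaluronan receptor, was higher in Adh than in Susp, at 118 ± 5.33 against 65.0 ± 7.56 CPM (log2 0.86, adjusted p = 0.000477), with all Adh libraries above all others. CD22 had log2 values of 0.43 in Susp (adjusted p = 0.0236) and 0.39 in Adh (adjusted p = 0.0250), short of a 1.5-fold change. CD83, ICAM1, TFRC and CD38 had adjusted p-values above the threshold in all comparisons. In the SLAM and CD2 family list, which includes CD48 and CD58, 5 of 11 genes were tested and 0 passed by edgeR or DESeq2, with 2, 3 and 0 at an unadjusted p under 0.05, where 16.7%, 20.2% and 18% of all genes were. Without Susp replicate 2, CD58 passed in Adh. SLAMF6 came closest, at 36.4 CPM in Adh against 24.7 CPM in Sep (log2 0.56, adjusted p = 0.0126), short of a 1.5-fold change. Of the 9 B cell and MCL markers, 8 were tested and 0 passed by either tool, with 4, 2 and 3 at an unadjusted p under 0.05 against the same shares of all genes, and CD79B had a log2 value of 0.55 in Susp (adjusted p = 0.0310).

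**Figure D5:**
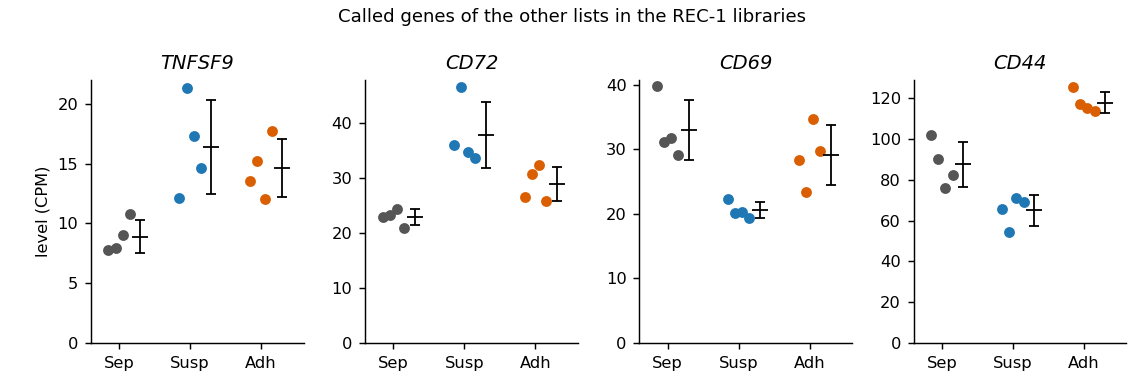
Level (CPM, from 0) in each REC-1 library of the 4 genes on the other lists that passed the threshold in a comparison, with the mean ± SD (n = 4) beside the points. TNFSF9 is higher in Susp and Adh than in Sep, CD72 highest and CD69 lowest in Susp, and CD44 highest in Adh.

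In the stroma, the counterpart ligands showed a different makeup. Mouse counts came to 10097555 to 17397651 per MS-5 library and 29495404 to 34615602 per Adh library. Of the 10 stromal markers, 8 were well detected (Col1a1 at a mean of 1313 CPM alone and 1325 CPM in Adh), whereas Dcn and Lum were at 0 counts in all 8 profiles. The mouse blood cell markers summed to 26.9–28.8 CPM in MS-5 alone and 24.8–27.3 CPM in Adh. Nearly all of it was Cd14, at 24.3 to 26.2 CPM alone and 21.4 to 24.5 CPM in Adh. Lyz2 and Csf1r had low counts, and the leukocyte gene Ptprc was at 0 in all 8 profiles. Cd80 was the leading counterpart, at 39.5, 39.3, 34.0 and 39.2 CPM in MS-5 alone and 36.4, 37.8, 30.3 and 33.3 CPM in MS-5 from Adh. The groups overlapped, and the log2 value was -0.14 (95% interval -0.32 to 0.04, edgeR adjusted p = 0.576 over 12201 genes). Cd274 was at 1.04 ± 0.337 and 1.05 ± 0.287 CPM (adjusted p = 0.997) and Cd40 at 0.725 ± 0.358 and 0.589 ± 0.256 CPM (adjusted p = 0.849) in MS-5 alone and from Adh. Cd86, Icosl, Pdcd1lg2 and Cd70 had 0 counts in all 8 mouse profiles, and Cd48 had 2 counts in 1 Adh library. The tested counterparts were 3 of 8, of which 0 passed by edgeR or DESeq2 against 0.205% of all mouse genes by edgeR, and 11.3% of mouse genes had an unadjusted p under 0.05, none of them a counterpart.

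Mouse Cd86 had 0 counts in every mouse profile. In the Adh libraries, CD80 had 28 to 38 human counts (2.33 to 4.62 CPM) beside 1048 to 1232 mouse Cd80 counts. In Sep, which held no mouse cells, CD80 had 29 to 38 counts (2.28 to 3.18 CPM). Whether reads of mouse Cd80 added to the human CD80 counts in Adh was not tested.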

How the data were processed

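PolyA RNA of REC-1 and MS-5 cultures (12 libraries with human and 8 with mouse profiles) was sequenced from TruSeq libraries. The authors separated reads by species with Xenome, aligned them with STAR 2.5.1b to GRCh38 or GRCm38 and deposited raw counts per gene, made with featureCounts of Subread 1.5.2. Total counts ran from 7758979 to 21467832 per human and from 10097555 to 34615602 per mouse profile, with low counts limiting CD80, CD58 and the untested genes. Of counts between 1 and 20, 65.0–79.2% (human) were even, so many pairs were apparently counted as 2; counts were halved as an alternative. Another 20 columns, of another cell line, were not used.

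Genes were filtered with filterByExpr, scaled by TMM and fitted with edgeR 4.0.16 (glmQLFit, glmQLFTest; R 4.3.3), with all 12 REC-1 libraries in 1 model and the 8 mouse profiles in another. Calls needed an adjusted p (Benjamini-Hochberg) no higher than 0.05 with a change of 1.5-fold or more. Groups came from the sample titles. CPM and RPKM were computed from the counts, RPKM with exon lengths of GENCODE 44 (human) and M21 (mouse). The likeness of genes was Pearson's r of log2 CPM (prior count 2). The procedure was tested on simulated data.

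The members and gene lists were chosen with earlier results of these data known. Named were the 9 members, every called gene of each list with up to 4 abundant others, and the 5 genes most and 3 least like CD86. Alternatives were other scalings and filters, DESeq2 1.42.0, the newer quasi-likelihood form, 2-group models, no fold minimum, leaving out libraries and a replicate block. Halved counts, removal of the GC trend, and Susp replicate 2 left out with the block were added after the data were seen. Same-numbered libraries were checked for pairing and did not deviate together in all pairs, so the numbers were not treated as pairs.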

Additional observations from a re-analysis of the deposited data

Results flagged for a closer look

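Among 24 groups of 4 libraries, 4 held a library far from the other 3 by Dixon's 95% criterion, where chance gives about 1 in 20. In Adh, CD40 was at 119 CPM in replicate 3 and at 143 to 147 CPM in the others. In Susp, CD48 was at 109 CPM in replicate 2 and at 84.3 to 87.8 CPM in the others. In MS-5 alone, mouse Cd40 was at 1.26 CPM in replicate 1 and at 0.469 to 0.597 CPM in the others, and mouse Cd80 was at 34.0 CPM in replicate 3 and at 39.2 to 39.5 CPM in the others. What set these libraries apart was not tested.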

How the results depend on the processing

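Across 450 values of the ligand genes under 25 alternative settings in 3 comparisons, 442 kept their direction and their side of the threshold, 5 changed sign and 3 crossed the threshold. CD86 entered the list for its difference from Sep. Its values against Sep, and its part in the counts of calls below, follow from that choice. The count of ligand genes called was 2 in Susp against Sep and 0 in Adh against Susp under every alternative run, and that of mouse counterparts was 0. In Adh against Sep the count was 1, and 2 (CD58 added) without a filter on low counts, and 2 without Susp replicate 2 with a replicate block. Leaving out single libraries gave 1 to 2, with 2 only without Susp replicate 2. CD58 then had a log2 value of 0.82 (adjusted p = 0.0458), 0.79 (0.0182) and 0.83 (0.0409), against 0.82 (0.105). The adjusted p of CD70 in Adh ran from 1.86e-06 to 0.159 and that of CD58 from 0.0182 to 0.330; the cause was not tested. Reversed values were all near 0. CD40 in Susp against Sep was -0.0052 with library totals, -0.067 to 0.096 without single libraries (negative without Susp replicate 2) and -0.051 without that library with the block. In Adh against Susp, CD86 was -0.146 to 0.0066 without single libraries (positive without Adh replicate 1) and CD48 0.022 without Susp replicate 2 with the block. Mouse Cd40 was -0.508 to 0.102 without single libraries (positive without MS-5 replicate 1). Mouse Cd274 was 0.0015 with upper-quartile scaling, 0.0032 with library totals, 0.010 with no filter, 0.037 with halved counts and -0.195 to 0.229 without single libraries (positive without MS-5 replicate 3, MS-5 replicate 4 or Adh replicate 4).

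With the replicate number as a block, CD70 in Susp against Sep was 0.88 (adjusted p = 0.000274) and 0.54 in Adh (0.00551), and no ligand gene changed its call. CD48 in Susp had an adjusted p of 0.0396 with the block, at under 1.5-fold. Correlations of same-numbered libraries ran from -0.02 to 0.32. They were highest for replicate 1, at 0.32 in Susp against Sep, 0.31 in Adh against Sep, 0.31 in Adh against Susp and 0.29 in the mouse comparison. Counts over all genes moved more. They were 94, 309 and 100 in Susp against Sep, Adh against Sep and Adh against Susp, and 175, 384 and 281 with the block, 172, 527 and 282 with DESeq2, 217, 503 and 341 with no filter, and 144, 680 and 419 without Susp replicate 2 with the block. Leaving out single libraries gave 64 to 135, 143 to 519 and 51 to 165. In the mouse model the 25 genes called became 45 with the block, 38 with DESeq2, 45 with no filter, 94 without a fold minimum and 8 to 36 without single libraries.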
